A study of Mus musculus with 18 samples.

Results

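Isg15, Uba7, Ube2l6, Herc6 and Usp18 encode the ISG15 conjugation pathway of the mouse and the protease that reverses it, and their mRNA was measured in B16F10 tumors treated with a STING agonist. The 5 genes were taken by name from the 50600 genes of the count table, and were selected on their measured fold changes against PBS in earlier results of these data. Values against PBS are therefore given as a description with no test, and tests are kept for comparisons that did not choose the genes. The comparisons tested still share agonist tumors with those that chose the genes, so they are not independent of that choice. B16F10 is a mouse melanoma line, grown under the skin of female C57BL/6 mice of 5 to 6 weeks. STING is the cytosolic DNA-signalling adaptor that switches on type I interferon, and CDN2 is a synthetic cyclic dinucleotide agonist of it, named CL656 in some labels. Free CDN2 was compared with exoCDN2, which is CDN2 loaded into extracellular vesicles (EVs) of HEK293 cells that overexpress the surface protein PTGFRN. Tumors were injected directly and collected 24 h after the last dose.

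The 18 tumors fell into 9 groups of 2. After 1 dose there were tumors given PBS, unloaded EVs, 20 µg of CDN2, 100 µg of CDN2, or exoCDN2 that carried 0.1 µg of CDN2. After 2 doses given 3 days apart there were tumors given PBS, 20 µg of CDN2, exoCDN2 carrying 0.1 µg, or free CDN2 of an amount that the labels do not state. No tumor received unloaded EVs for 2 doses, so at that time the vesicle itself cannot be told apart from its cargo. The tumors came from 1 transplanted line, the whole tumor was sequenced, and the EVs were of human origin. Nothing in the labels says that the 2 tumors of a group came from separate experiments, so p-values measure only the spread between these tumors.

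ISG15 is a ubiquitin-like protein, made in large amounts after type I interferon. Like ubiquitin it is joined to other proteins by a relay of enzymes: the E1 enzyme UBA7 activates it, the E2 enzyme UBE2L6 carries it, and in the mouse HERC6 is the main E3 ligase that passes it to targets. USP18 cuts ISG15 off again and, apart from that activity, sits on the interferon receptor chain IFNAR2 with STAT2 and dampens further signalling. Free ISG15 can also leave the cell and act as a cytokine-like signal on lymphocytes.

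In the GRCm38 annotation (GENCODE M21) Isg15 (ENSMUSG00000035692) lies at chr4:156199424-156200818 on the minus strand and has 2 exons in its principal transcript. Uba7 (ENSMUSG00000032596) spans chr9:107975505-107984060 with 24 exons, and Ube2l6 (ENSMUSG00000027078) spans chr2:84798828-84810335 with 4 exons. Herc6 (ENSMUSG00000029798) spans chr6:57581000-57664632 with 23 exons. Usp18 (ENSMUSG00000030107) spans chr6:121245906-121270917 with 11 exons. These 4 genes are on the plus strand. Readthrough or overlapping models on the same strand shared part of Uba7 and Herc6, with no more than 145 and 96 counts in any tumor, and an antisense transcript over Usp18 had at most 4.

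The upstream sequences of the modifier Isg15 and its E1 enzyme Uba7 are shown because they differed in their distance from PBS after the first dose. RefSeq's table matched 4 of the 5 genes, not Usp18. Each run gives the 250 bases before the RefSeq start site in GRCm38.p6, 5′ to 3′ on the strand of the gene, and capitals mark AAANNGAAA, the core of the element bound by the interferon-responsive factor ISGF3, on either strand. The Isg15 run is chr4:156200819-156201068 and the Uba7 run is chr9:107975317-107975566.
Isg15: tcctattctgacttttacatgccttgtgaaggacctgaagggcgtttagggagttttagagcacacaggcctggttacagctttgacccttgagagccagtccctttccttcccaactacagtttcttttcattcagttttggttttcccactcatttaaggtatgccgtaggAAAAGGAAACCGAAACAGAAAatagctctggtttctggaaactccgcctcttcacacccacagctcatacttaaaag
Uba7: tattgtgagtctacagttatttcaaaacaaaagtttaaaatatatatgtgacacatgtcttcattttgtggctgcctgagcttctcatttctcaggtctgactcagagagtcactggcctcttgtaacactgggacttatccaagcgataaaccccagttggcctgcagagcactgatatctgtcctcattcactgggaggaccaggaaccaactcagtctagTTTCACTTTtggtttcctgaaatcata
Isg15 held 3 overlapping matches, which began 77 to 65 bases before the start. Uba7 held 1 match, 27 bases before the start, on the opposite strand. In the same window of Ube2l6 (chr2:84798578-84798827) and Herc6 (chr6:57580742-57580991) it did not occur, which says only that these letters were not in this window. Of 32851 mouse upstream windows of this length, 9.37% held it. These matches are a description of the sequence, and binding was not measured.

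Libraries held 21608895 to 65983630 expected counts, and all 5 genes passed the filter on low counts. Melanoma genes (Pmel, Tyr, Dct and others, 7 listed) summed to 15066 to 25110 CPM (expected counts scaled to a common library size) in every group except 20 µg of CDN2 at 2 doses, where they summed to 7409 and 12884. That pair stood apart: its tumors correlated at 0.961 with each other and differed over 2-fold in 13.8% of genes, against 0.129% to 3.25% in the other groups, and the first held the fewest counts. Its neutrophil genes (5 listed) summed to 196 and 864 CPM against 1.55 to 63.8 elsewhere, and its skeletal muscle genes (4 listed) to 1547 and 3130 against 2.52 to 449. Keratinocyte genes (4 listed) summed to 61.8 and 114.5 CPM in PBS tumors of the 1-dose series and to 0.0438 and 0.429 in PBS tumors of the 2-dose series. B cell genes (3 listed) summed to at most 1.40 CPM in any tumor. In whole tumors, fewer cells of a type and less RNA per cell cannot be told apart.

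Isg15, the modifier, was high in every agonist group of stated amount. Its level was 30.5 and 31.4 CPM in PBS tumors after 1 dose and 25.3 and 18.6 after unloaded EVs. It was 282 and 405 after 20 µg of CDN2, 331 and 325 after 100 µg, and 305 and 306 after exoCDN2. All agonist tumors of the 1-dose series thus lay at 282 CPM or above, and the others at 31.4 or below. After 2 doses it was 4.31 and 4.47 CPM in PBS tumors, 1056 and 663 after 20 µg of CDN2, 239 and 191 after exoCDN2, and 22.7 and 32.4 after CDN2 of unstated amount. The tumors given CDN2 of unstated amount overlapped PBS tumors of the 1-dose series and were far below every other agonist tumor.

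Usp18, which removes ISG15 and restrains the receptor, had a similar profile with a different order at the top. PBS and unloaded EV tumors of the 1-dose series held 21.7, 20.7, 17.4 and 11.1 CPM. The levels were 304 and 317 after 20 µg of CDN2, 214 and 229.9 after 100 µg, and 349.7 and 408 after exoCDN2, so that the 3 agonist groups did not overlap and exoCDN2 was the highest. After 2 doses Usp18 was at 3.84 and 3.61 CPM in PBS tumors, 385 and 322 after 20 µg of CDN2, 212 and 156 after exoCDN2, and 18.6 and 26.3 after CDN2 of unstated amount. The order of 20 µg of CDN2 and exoCDN2 at 2 doses was the reverse of that at 1 dose.

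Uba7, the activating enzyme, differed far less than Isg15 from PBS after the first dose. It was 18.9 and 20.6 CPM with PBS, 8.02 and 13.3 with unloaded EVs, 39.1 and 47.5 with 20 µg of CDN2, 13.7 and 16.5 with 100 µg, and 22.4 and 27.6 with exoCDN2. The tumors given 100 µg were below both PBS tumors, although their Isg15 was as high as in the other agonist groups. After 2 doses Uba7 was 5.12 and 4.29 CPM with PBS, 60.5 and 100.2 with 20 µg of CDN2, 110.2 and 72.6 with exoCDN2, and 15.4 and 19.4 with CDN2 of unstated amount. The 2-dose tumors given 20 µg of CDN2 or exoCDN2 overlapped each other and were above every 1-dose tumor.

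Ube2l6, the conjugating enzyme, was ordered much like Uba7. Its levels after 1 dose were 65.1 and 77.0 CPM with PBS, 25.0 and 42.9 with unloaded EVs, 145 and 189 with 20 µg of CDN2, 78.6 and 86.1 with 100 µg, and 109 and 142 with exoCDN2. The 100 µg tumors were just above the PBS tumors. After 2 doses it was 17.9 and 17.7 CPM with PBS, 264 and 333 with 20 µg of CDN2, 282 and 211 with exoCDN2, and 60.7 and 129 with CDN2 of unstated amount.

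Herc6, the ligase, was more even across the agonist groups of stated amount. It was 75.5 and 79.6 CPM with PBS after 1 dose, 47.6 and 54.9 with unloaded EVs, 211 and 257 with 20 µg of CDN2, 208 and 196 with 100 µg, and 261 and 282 with exoCDN2. After 2 doses it was 40.8 and 21.9 CPM with PBS, 171 and 309.5 with 20 µg of CDN2, 407 and 279 with exoCDN2, and 67.2 and 75.7 with CDN2 of unstated amount. The tumors given 2 doses of 20 µg of CDN2 overlapped those given 1 dose of it or of exoCDN2. Those given 2 doses of exoCDN2 overlapped those given 1 dose of exoCDN2 and lay above those given 1 dose of 20 µg of CDN2.

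**Figure D1:**
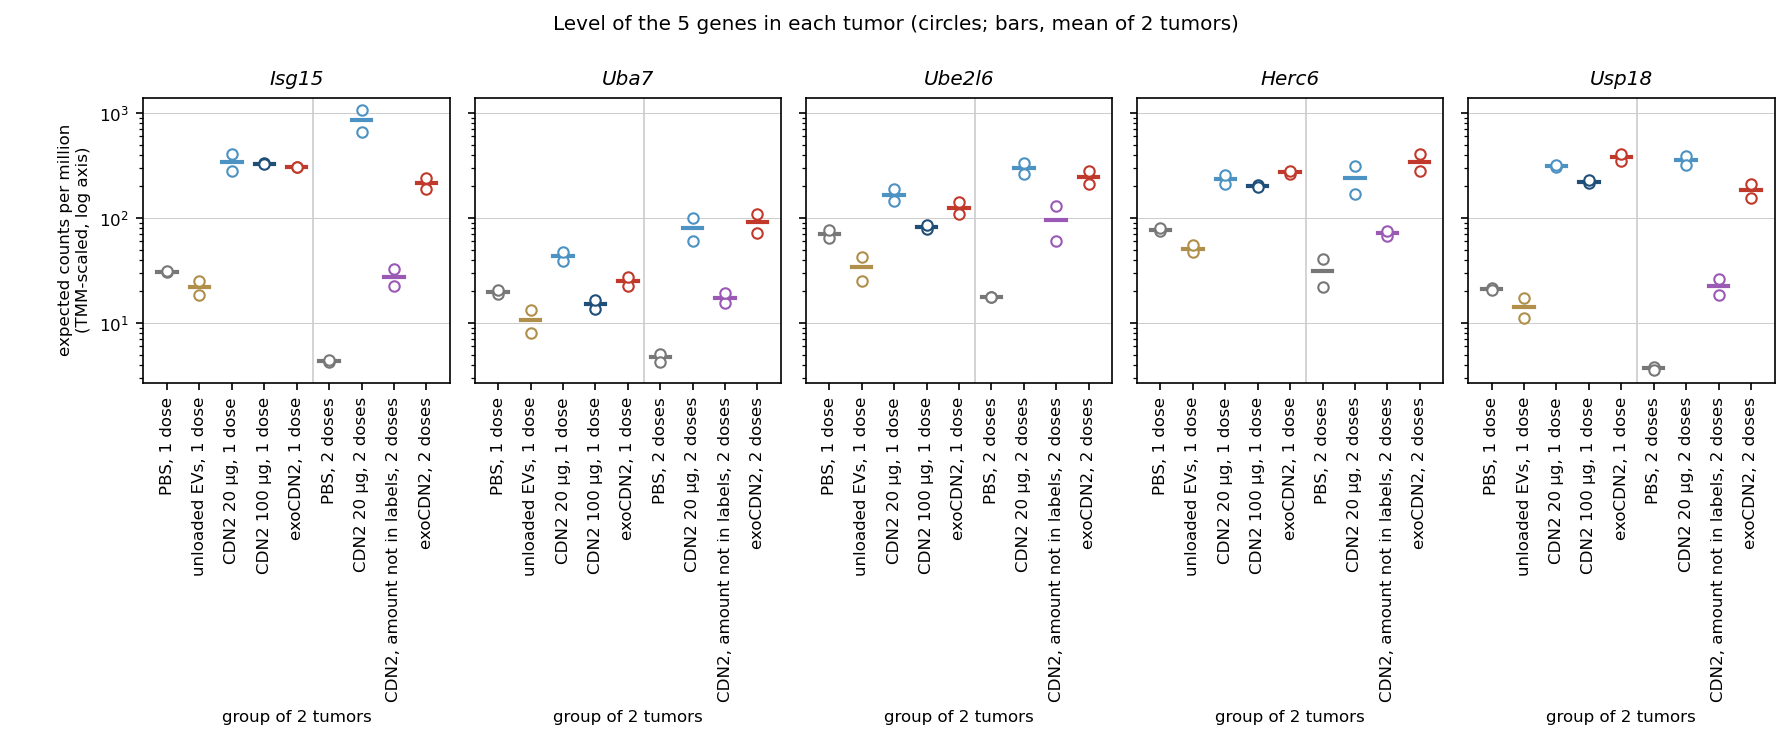
Level of each gene in each of the 18 tumors, in CPM on a log axis; circles are tumors, bars are means of 2 tumors, and the vertical line separates 1 dose from 2 doses. Isg15 lay between 282 and 405 in the agonist tumors of the 1-dose series and at 1056 and 663 after 2 doses of 20 µg of CDN2. Uba7 reached its highest levels after 2 doses, at 60.5 to 110.2.

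Set against PBS of the same number of doses, the modifier and the protease were further from PBS after 1 dose than the enzymes. Isg15 was 11.1-fold higher with 20 µg of CDN2 (log2 3.47 ± 0.25, SE, 2 tumors a group), 10.6-fold with 100 µg (3.41 ± 0.25) and 9.88-fold with exoCDN2 (3.30 ± 0.25). Usp18 was 14.6-fold, 10.5-fold and 17.9-fold higher in the same order. Herc6 was 3.01-fold, 2.61-fold and 3.50-fold higher. Ube2l6 was 2.35-fold, 1.16-fold and 1.77-fold higher, and Uba7 was at 2.19, 0.764 and 1.27 times its PBS level. On the log2 scale Uba7 was at -0.39 ± 0.29 with 100 µg and at 0.34 ± 0.29 with exoCDN2. A gene is called where edgeR's quasi-likelihood test gives an adjusted p under 0.05 and a change over 2-fold. Of the cell type genes, 3 of 4 endothelial and 1 of 7 melanoma genes were called lower and 2 of 5 neutrophil genes higher with 20 µg, 3 of 5 T cell genes lower with 100 µg, and 3 of 5 neutrophil and 1 of 5 dendritic cell genes higher with exoCDN2; their part in these values was not tested.

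After 2 doses of 20 µg of CDN2 or of exoCDN2 all 5 genes were further from PBS of the same series than after 1. Isg15 was 196.5-fold higher with 20 µg of CDN2 (log2 7.62 ± 0.31) and 49-fold with exoCDN2 (5.61 ± 0.28). Usp18 was 95.2-fold and 49.3-fold higher. Among the enzymes Uba7 was 17.1-fold and 19.4-fold higher, Ube2l6 16.8-fold and 13.8-fold, and Herc6 7.68-fold and 10.9-fold. With CDN2 of unstated amount the folds were smaller, at 6.27 for Isg15, 6.02 for Usp18, 5.34 for Ube2l6, 3.69 for Uba7 and 2.28 for Herc6. With 20 µg of CDN2 5 of 5 neutrophil, 4 of 5 T cell, 5 of 7 macrophage, 3 of 4 fibroblast, 3 of 4 skeletal muscle, 2 of 4 NK cell and 1 of 5 dendritic cell genes were called higher, and 4 of 7 melanoma, 1 of 4 endothelial and 1 of 5 dendritic cell genes lower. With exoCDN2 5 of 5 neutrophil, 4 of 5 T cell, 4 of 4 NK cell, 2 of 4 fibroblast and 2 of 7 macrophage genes were called higher, and with CDN2 of unstated amount 1 of 5 T cell genes; their part in the folds was not tested. These folds rest on the low levels of PBS tumors in the 2-dose series. Against all 4 PBS tumors pooled, Isg15 with exoCDN2 was at log2 4.11 after 1 dose and 3.60 after 2, and Usp18 at 4.92 and 3.88, so that both were nearer to PBS after 2 doses, whereas Uba7 was at 1.03 and 2.90. On the same pooled reference, with 20 µg of CDN2 Isg15 was at 4.28 after 1 dose and 5.61 after 2, and Usp18 at 4.64 and 4.83. With CDN2 of unstated amount Isg15 was at 0.64 ± 0.62 on that reference.

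**Figure D2:**
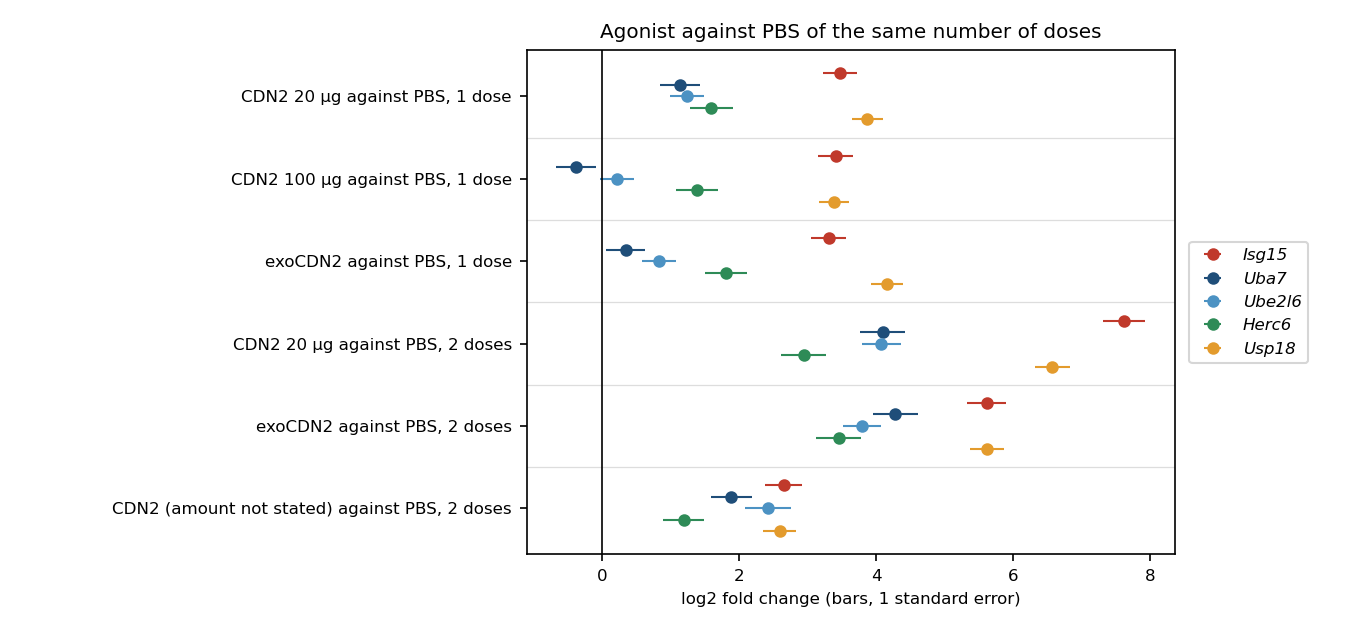
Log2 fold change of the 5 genes against PBS of the same number of doses in the 6 agonist comparisons; points are fitted values and bars 1 standard error. Isg15 and Usp18 lay between 3.30 and 4.16 at 1 dose, apart from Uba7 and Ube2l6, which lay between -0.39 and 1.23.

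Per kilobase of principal transcript, the modifier and the E2 enzyme were about level in PBS tumors after 1 dose and far apart with exoCDN2. In those PBS tumors Isg15 was at 40.9 ± 0.902 CPM per kb (SD, n = 2), Ube2l6 at 45.6 ± 5.41, Herc6 at 16.3 ± 0.596, Usp18 at 11.98 ± 0.391 and Uba7 at 6.18 ± 0.386. With exoCDN2 after 1 dose they were at 404 ± 1.23, 80.6 ± 14.9, 56.9 ± 3.03, 214 ± 23.3 and 7.83 ± 1.16 in the same order. In PBS tumors after 2 doses Isg15 was at 5.80 CPM per kb, below Ube2l6 at 11.4. After 2 doses of exoCDN2 Isg15 was at 284 ± 45.1 CPM per kb, Ube2l6 at 158 ± 32.2 and Uba7 at 28.6 ± 8.32. Uba7 was the least abundant of the 5 mRNAs per length in the mean of every group.

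Unloaded EVs were compared with PBS to see what the vesicle did without its cargo. These PBS tumors are also the reference of the comparisons that chose the genes, so the values are a description with no test. All 5 genes were lower with EVs. The lowest was Ube2l6 (log2 -1.06 ± 0.25), while Isg15 differed by -0.49 ± 0.23 and Usp18 by -0.57 ± 0.20. Against all 4 PBS tumors pooled the differences of Isg15 and Usp18 turned positive, at 0.31 and 0.19. Over all genes, edgeR called 0 of 16927 (0%), with 540 (3.19%) at an unadjusted p under 0.05, and DESeq2 called 36. T cell genes (5 listed) summed to 1.92 and 5.25 CPM with EVs and to 6.52 and 8.58 with PBS. Macrophage genes (7 listed) summed to 145 and 326 against 303 and 389. In these lists 0 of 5 and 0 of 7 were called, and their part in these values was not tested.

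The comparison of exoCDN2 with 20 µg of free CDN2 set vesicle delivery against the free agonist, at amounts that differed (0.1 and 20 µg). After 1 dose 0 of 5 genes were called by edgeR, beside a background of 0.608% of genes. At an unadjusted p under 0.05 there was 1 of the 5, Uba7, beside 19.5% of all genes. Usp18 differed by 0.29 on the log2 scale (95% interval -0.15 to 0.72) and Isg15 by -0.17 (-0.67 to 0.33). Uba7 differed most (log2 -0.79 ± 0.29, edgeR's adjusted p = 0.163). Endothelial genes, 3 of 4, were called higher with exoCDN2, and their part in these values was not tested.

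Raising free CDN2 from 20 to 100 µg left the modifier within its spread, while the E1 enzyme passed the test in a call that rested on every tumor. Uba7 was 2.87-fold lower with 100 µg (log2 -1.52 ± 0.29, edgeR's adjusted p = 0.0484), the only gene called of 5, where 0.224% of genes were called lower. The call was lost without any 1 of the 4 tumors (adjusted p from 0.134 to 0.349). Ube2l6 had a difference of -1.02 ± 0.25 (adjusted p = 0.0854 in edgeR) and was called by DESeq2 (adjusted p = 0.00565). Isg15 differed by -0.07 (95% interval -0.57 to 0.43), Herc6 by -0.21 and Usp18 by -0.48. T cell genes (5 listed) summed to 4.21 and 9.14 CPM with 20 µg and 1.22 and 1.36 with 100 µg, 0 of 5 called, and endothelial genes rose in 3 of 4; their part in these values was not tested.

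PBS tumors themselves differed between the 2 series. These tumors are the reference of the comparisons that chose the genes, so for the 5 genes the difference is a description with no test. After 2 doses Isg15 was 7.05-fold below its level after 1 dose (log2 -2.82 ± 0.25), Usp18 5.68-fold (-2.51 ± 0.22), Uba7 4.19-fold (-2.07 ± 0.31) and Ube2l6 3.99-fold (-2.0 ± 0.26). Herc6 had a difference of -1.30 ± 0.31. Stat2 and Irf9, subunits of ISGF3, were called lower, Stat2 by -1.38 and Irf9 by -1.13, where 1.05% of all genes were. Beside this, T cell genes summed to 6.52 and 8.58 CPM after 1 dose and 0.832 and 1.63 after 2, with 1 of 5 called lower. Macrophage genes (7 listed) summed to 303 and 389 against 160 and 167, with 0 called, and 0 of 4 keratinocyte genes, whose sums are given above, were called. Their part in the result was not tested, and the number of PBS injections cannot be told apart from the day of collection.

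Isg15 was higher after 2 doses of 20 µg of CDN2 than after 1, although it was lower in PBS tumors of the 2-dose series. It was 2.51-fold above its level after 1 dose (log2 1.33 ± 0.23, edgeR's adjusted p = 0.00189), the only gene of the 5 called, with a background of 14.4% of genes called higher, so that the count of members called was near the background. Fitted on these 4 tumors alone, the adjusted p of Isg15 in edgeR was 0.0833, and the call was lost. Uba7 (0.90 ± 0.29, adjusted p = 0.0302) and Ube2l6 (0.84 ± 0.25, adjusted p = 0.0217) had adjusted p-values under 0.05 in edgeR but changes under 2-fold. Usp18 (0.20 ± 0.20) and Herc6 (0.04 ± 0.30) were not separated from their 1-dose levels. Without the first 2-dose tumor, which had the fewest counts of all libraries, the change of Isg15 was 0.94 and fell below the 2-fold limit, while Uba7 at 1.2 passed it. Without the second 1-dose tumor Ube2l6 also passed, at 1.02. In this comparison all 5 neutrophil genes, all 4 endothelial genes, 3 of 4 fibroblast genes, 3 of 4 skeletal muscle genes, 2 of 4 NK cell genes and 1 of 7 macrophage genes were called higher and 3 of 7 melanoma genes lower; their part in the result was not tested.

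Between 1 dose and 2 doses of exoCDN2 the levels of the E1 enzyme and the protease differed in opposite directions, while PBS tumors of the 2 series differed too, by -2.07 for Uba7 and -2.51 for Usp18. Uba7 was 3.65-fold higher than after 1 dose (log2 1.87 ± 0.30, edgeR's adjusted p = 0.0037), with 5.1% of genes called higher, and Usp18 was 2.06-fold lower (-1.04 ± 0.20, adjusted p = 0.00782), with 2.34% called lower. Ube2l6 was at 0.97 ± 0.25 (adjusted p = 0.0269), a change just under 2-fold, and Isg15 at -0.51 ± 0.23 (adjusted p = 0.175). The call of Usp18 was lost without either 1-dose tumor or the second 2-dose tumor (adjusted p from 0.0511 to 0.0651), and that of Uba7 without the first 1-dose tumor (adjusted p = 0.0616 in edgeR), and without the second 2-dose tumor Ube2l6 was called at 1.17. T cell genes summed to 2.16 and 2.90 CPM after 1 dose and to 21.4 and 27.7 after 2, with 4 of 5 called higher, and NK cell genes (4 listed) rose in 2 of 4, macrophage genes in 1 of 7 and fibroblast genes in 1 of 4, while 1 of 5 dendritic cell genes fell; their part in these changes was not tested.

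At 2 doses the modifier was lower with exoCDN2 than with 20 µg of CDN2, whereas the 3 enzymes were not called. Isg15 was 4.01-fold lower with exoCDN2 (log2 -2.0 ± 0.24, edgeR's adjusted p = 0.00101), the only call of 5. Of all genes 12% were called lower, so that the count of members called was near the background. Usp18 was 1.93-fold lower (-0.95 ± 0.20, adjusted p = 0.00556), just inside the 2-fold limit, and both DESeq2 and edgeR with RLE factors, which put it at -1.0, called it. Without the second CDN2 tumor Herc6 was called, at 1.04. In the fit of all tumors Uba7 differed by 0.18 (95% interval -0.45 to 0.80), Ube2l6 by -0.28 (-0.82 to 0.26) and Herc6 by 0.51 (-0.15 to 1.17). Leaving out each tumor in turn, Isg15 lay between -2.26 and -1.63, with an adjusted p in edgeR that rests on the spread in the other groups, since 1 group then holds 1 tumor. Fitted on these 4 tumors alone, its adjusted p in edgeR was 0.125, and the call was lost. Neutrophil genes were called lower with exoCDN2 in 4 of 5 cases, skeletal muscle genes in 3 of 4, fibroblast genes in 2 of 4 and dendritic cell genes in 1 of 5. T cell genes were called higher in 2 of 5 cases, melanoma genes in 2 of 7, macrophage genes in 1 of 7 and endothelial genes in 1 of 4; their part in this difference was not tested.

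The gap between exoCDN2 and 20 µg of CDN2 also changed from 1 dose to 2. The change was -1.84 ± 0.33 on the log2 scale for Isg15 (edgeR's adjusted p = 0.0146) and -1.24 ± 0.28 for Usp18 (0.0273), so 2 of 5 genes were called, with 5.34% of genes called lower. Fitted on these 8 tumors alone, both calls were lost (adjusted p of 0.103 and 0.109 in edgeR). For Uba7 it was 0.97 ± 0.41 (adjusted p = 0.134, and a call without the filter on low counts, at 1.03 with an adjusted p of 0.0105 in edgeR), for Ube2l6 0.13 and for Herc6 0.29. The call of Isg15 was lost without 4 of the 8 tumors in turn and that of Usp18 without 5, with adjusted p-values up to 0.0752 and 0.115 in edgeR. Uba7 was called, at 1.40, without the second 2-dose tumor given CDN2. Neutrophil genes were called lower in 4 of 5 cases, fibroblast genes in 2 of 4, skeletal muscle genes in 1 of 4 and dendritic cell genes in 1 of 5, and T cell genes higher in 2 of 5 in the same comparison, and their part was not tested.

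The change from 1 dose to 2 was also set against that of PBS. These values are differences between the comparisons that chose the genes and hold the drop in PBS tumors, so they are a description with no test. Relative to PBS all 5 genes had a positive difference with either agonist. Uba7 was highest with exoCDN2 (log2 3.94 ± 0.42) and Isg15 with 20 µg of CDN2 (4.15 ± 0.34), and Herc6 was lowest with 20 µg of CDN2 (1.35 ± 0.43). In the same comparison with 20 µg of CDN2, T cell genes were called higher in 3 of 5 cases, neutrophil genes in 3 of 5, macrophage genes in 2 of 7, endothelial genes in 2 of 4 and fibroblast genes in 2 of 4, and melanoma genes lower in 4 of 7. With exoCDN2 T cell genes were called higher in 4 of 5 cases, macrophage genes in 5 of 7, NK cell genes in 1 of 4 and keratinocyte genes in 1 of 4, and dendritic cell genes lower in 1 of 5; their part in these values was not tested.

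**Figure D3:**
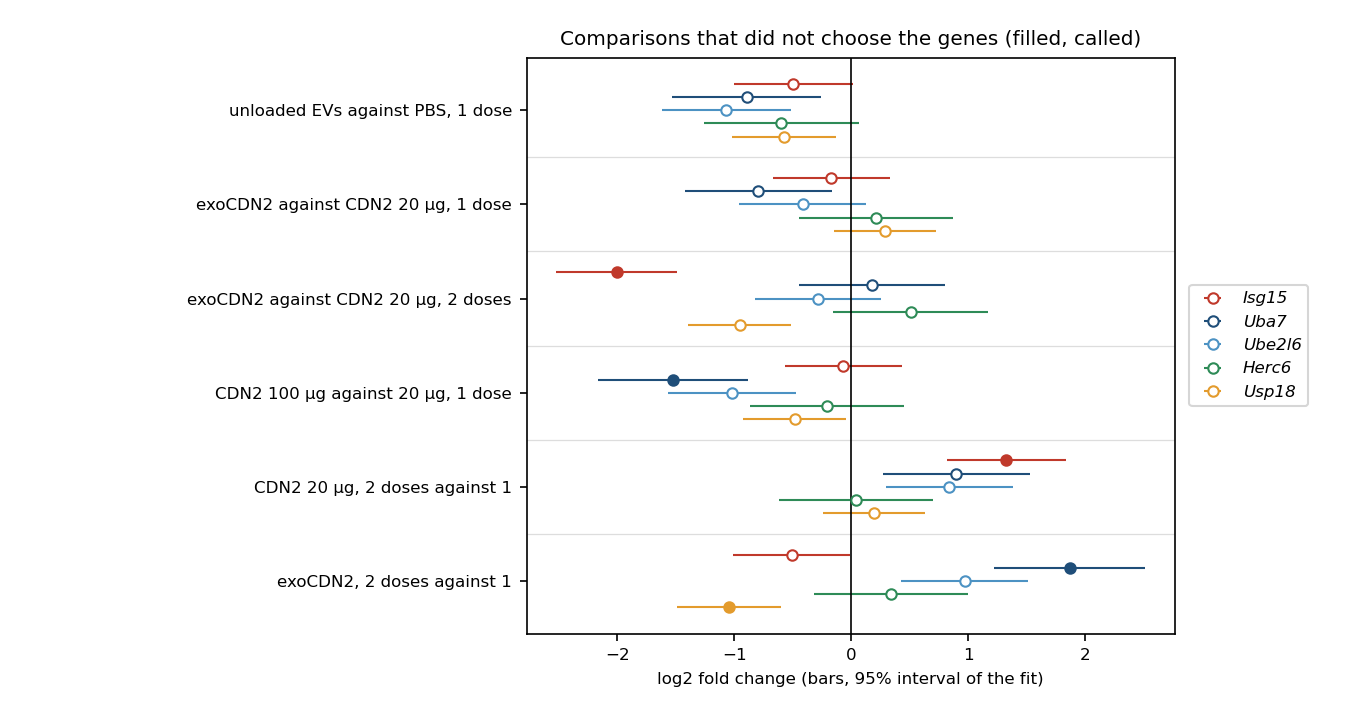
Log2 fold change of the 5 genes in 6 comparisons. Bars are 95% intervals of edgeR's fit, and filled points passed the test where one was made. All 5 points lay below 0 for unloaded EVs against PBS, which carry no test, and Isg15 at -2.0 was the 1 filled point for exoCDN2 against 20 µg of CDN2 at 2 doses.

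Tumors given CDN2 of unstated amount were compared with the other 2-dose agonist groups in a fit of all 18 tumors. The genes were chosen on fold changes of those groups against PBS, so for the 5 genes these values are a description with no test. All 5 genes were lower than with 20 µg of CDN2. Isg15 was 31.2-fold lower (log2 -4.96 ± 0.29), Usp18 15.8-fold, Uba7 4.62-fold, Herc6 3.36-fold and Ube2l6 3.14-fold. Called lower in the same comparison were 5 of 5 neutrophil, 4 of 4 skeletal muscle, 3 of 4 fibroblast, 1 of 7 macrophage and 1 of 5 dendritic cell genes. Called higher were 4 of 7 melanoma, 1 of 4 endothelial and 1 of 5 dendritic cell genes. All 5 were called higher with exoCDN2 than with CDN2 of unstated amount, where 4.97% of genes were called higher. The genes were chosen on fold changes of these groups against PBS, so that count is a description and not a test of enrichment. Usp18 was 8.19-fold higher (log2 3.03 ± 0.24), Isg15 7.81-fold, Uba7 5.25-fold and Herc6 4.8-fold. Ube2l6, 2.59-fold higher, lost its call without the first tumor of either group. Its difference was then log2 0.92 without the tumor of unstated amount and 1.15 without the exoCDN2 tumor. Called higher in the same comparison were 5 of 5 neutrophil, 2 of 4 NK cell and 2 of 4 fibroblast genes. The part of these cells in either comparison was not tested.

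The balance of the pathway within a tumor does not depend on how libraries are scaled. Per kilobase, Isg15 exceeded Uba7 by 6.82 and 6.44 times in PBS tumors after 1 dose. That ratio was 30.5 and 36.0 with 20 µg of CDN2, 57.6 and 46.9 with exoCDN2, and 102 and 83.3 with 100 µg, so the 3 agonist groups did not overlap. After 2 doses it was 3.55 and 4.40 with PBS, 73.7 and 28.0 with 20 µg of CDN2, 9.17 and 11.1 with exoCDN2, and 6.23 and 7.05 with CDN2 of unstated amount. Tumors given 2 doses of exoCDN2 were thus below all other tumors given a stated amount of agonist. Ube2l6 had a similar pattern: Isg15 over Ube2l6 per kilobase was 0.966 and 0.842 in PBS tumors after 1 dose, 5.76 and 4.45 after exoCDN2, 8.68 and 7.79 after 100 µg of CDN2, and 1.75 and 1.87 after 2 doses of exoCDN2, where PBS tumors of that series were at 0.496 and 0.522.

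Usp18 kept closest to Isg15. Over the 9 group means its log2 ratio to Isg15 spanned 1.55, against 4.01 for Ube2l6, 4.55 for Uba7 and 4.63 for Herc6. The ratio was highest after 1 dose of exoCDN2 (log2 0.20 and 0.41) and lowest after 2 doses of 20 µg of CDN2 (-1.45 and -1.04), and all other tumors lay between -0.74 and 0.11.

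**Figure D4:**
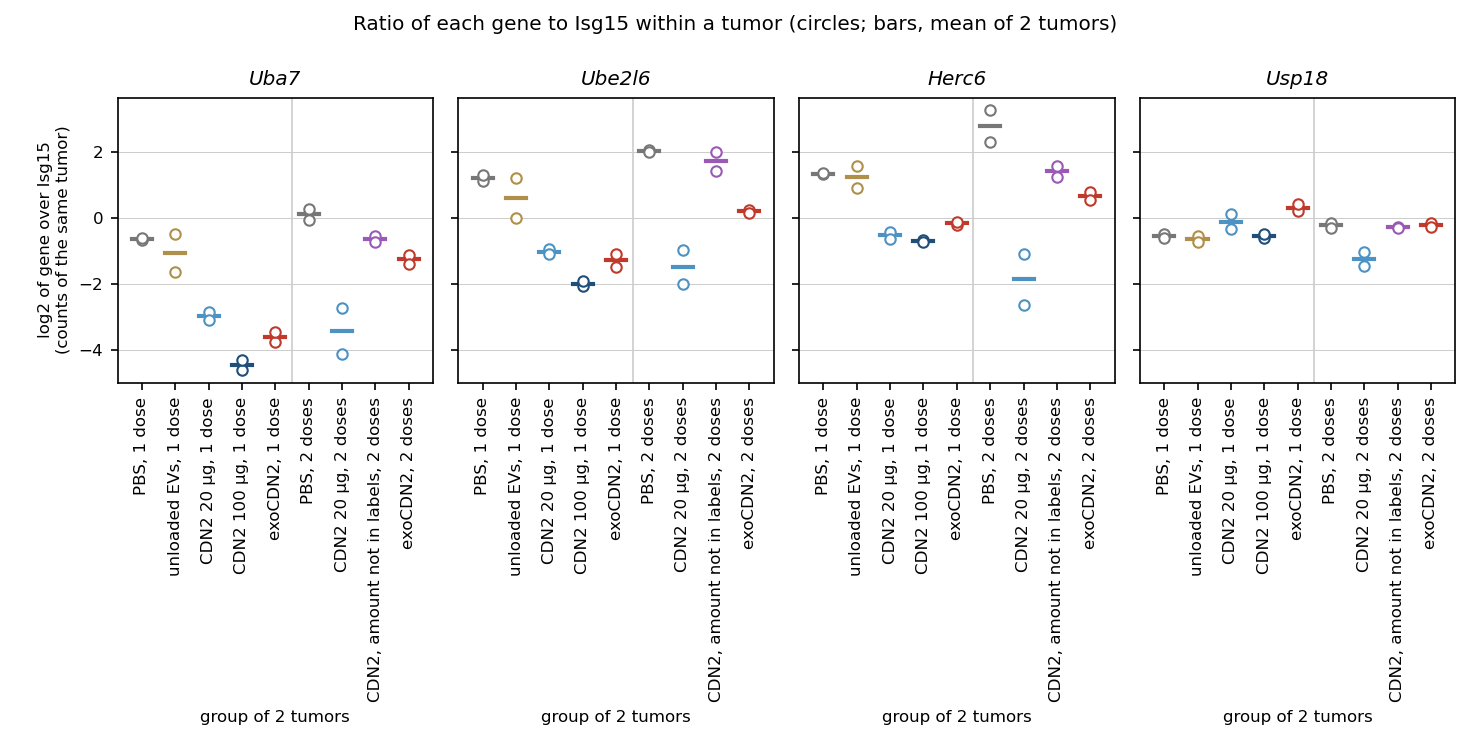
Log2 ratio of the counts of Uba7, Ube2l6, Herc6 and Usp18 to those of Isg15 in the same tumor; circles are tumors, bars are means of 2 tumors, and the vertical line separates 1 dose from 2. Uba7 was lowest relative to Isg15 after 100 µg of CDN2 (-4.60 and -4.30), whereas Usp18 stayed within a band of 1.55 over the group means.

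Across the 16 tumors of known agent and amount, log2 levels of Isg15 and Usp18 correlated at 0.983 and those of Uba7 and Ube2l6 at 0.973. Across these pairs the correlations were lower, at 0.773 for Uba7 with Usp18, 0.795 for Uba7 with Isg15, 0.880 for Ube2l6 with Usp18 and 0.898 for Ube2l6 with Isg15. Those of Herc6 ran from 0.850 with Uba7 to 0.946 with Usp18. These are descriptions over tumors that share groups and depth. Leaving out the 5 genes themselves, the 5 most like Isg15 were Rtp4 (0.992), Ifit1bl2, Hopx, Irf9 and Oasl2, and those most like Usp18 were Irf9 (0.994), the DNA-binding subunit of ISGF3, then Rtp4, Ifit3, Ifit3b and Cd274, which encodes PD-L1. Uba7 was most like Axl (0.983), a receptor tyrosine kinase, followed by the nucleic acid sensor Zbp1, Gm7609, the IL-18 decoy Il18bp and Parp3. Ube2l6 was most like Ifi35 (0.994), then Zbp1, Oas1a, Phf11d and Apol9b. Herc6 was most like Trim34a (0.982), then Ddx60, Parp9, Ifi44 and Apobec1. Usp18 ranked 4th of 16926 genes by likeness to Isg15, and Ube2l6 ranked 4th for Uba7, while Uba7 ranked 546th for Isg15.

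Few other genes of the ubiquitin-like machinery were called after 1 dose. Of 97 other modifiers, E1 and E2 enzymes, Herc ligases and ubiquitin-specific proteases tested, 1 was called higher and 0 lower with 20 µg of CDN2 (median log2 0.062 against -0.0035 over all genes), beside backgrounds of 2.26% of genes called higher and 0.886% lower. The gene was Usp25, a protease for ubiquitin chains, at 1.01 ± 0.17 (edgeR's adjusted p = 0.00617). With exoCDN2 it was again the 1 gene called (1.36 ± 0.17, adjusted p = 0.000911), where 2.2% of genes were called higher. With 100 µg of CDN2 0 of 97 were called higher, where the background was 1.82%, and 1 lower, Usp2 (-1.14 ± 0.25), where 0.62% were called lower. The 9 E1 enzymes, 30 E2 enzymes and 4 other Herc ligases held 0 calls in these 3 comparisons.

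After 2 doses of exoCDN2 or of 20 µg of CDN2 the same list held more calls, in both directions. In tumors given CDN2 of unstated amount 1 of 97 was called higher than PBS and 0 lower. Of all 17110 genes tested there, 164 were called in either direction, so that this count was near the background. With exoCDN2 2 of 97 were called higher and 2 lower, beside backgrounds of 8.87% and 2.48%. The higher were Usp25 (1.40 ± 0.17) and Ubd (8.87 ± 1.14), which encodes the ubiquitin-like modifier FAT10, and the lower were the E2 enzymes Ube2c (-1.21 ± 0.14) and Ube2t (-1.04 ± 0.19). Ubd counts in PBS tumors of the 2-dose series were 2 and 2, against 1566 and 833 with exoCDN2 and 597 and 542 with 20 µg of CDN2. Its folds thus rest on very few counts in those PBS tumors. With 20 µg of CDN2 7 were called higher and 6 lower, beside 20% and 10.6% of all genes. Usp13 was among the higher (4.5 ± 0.63) at 24.6 and 12.7 CPM, in the tumors whose skeletal muscle genes were highest, and Herc1 (-1.08 ± 0.27) and Herc2 (-1.33 ± 0.31) were among the lower. The median over the 97 genes was -0.095 there, against 0 over all genes. Between exoCDN2 and 20 µg of CDN2 at 2 doses, 10 of the 97 were called higher and 5 lower, beside 7.34% and 12% of all genes.

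Of 8 partners listed (other ISG15 ligases, the receptor chains and regulators of USP18, and the receptor of free ISG15), 2 were called higher in each 1-dose agonist group: Trim25, an E3 ligase that can also join ISG15, and Stat2, which places USP18 at the receptor. Of all genes 2.26% were called higher with 20 µg of CDN2, 1.82% with 100 µg and 2.2% with exoCDN2. With 100 µg 1 partner was also called lower, Itgal (-1.81 ± 0.43), beside 0.62% of all genes. Trim25 rose by 1.88 ± 0.15 with 20 µg of CDN2, 1.82 ± 0.15 with 100 µg and 2.19 ± 0.15 with exoCDN2, and Stat2 by 2.21 ± 0.20, 2.31 ± 0.20 and 2.47 ± 0.20. The receptor chains Ifnar1 and Ifnar2 held 0 calls in these groups. The other 6 proteases reported to act on ISG15 held 0 calls with 20 µg of CDN2 and with exoCDN2 at 1 dose, and 1 lower with 100 µg, Usp2. With 2 doses of exoCDN2 4 partners were called higher and 1 lower, beside 8.87% and 2.48% of all genes, and with 2 doses of 20 µg of CDN2 5 were called higher and 1 lower, beside 20% and 10.6%. In both groups the higher included the integrin chains of LFA-1, the receptor of free ISG15. Against PBS Itgal was higher by 3.95 ± 0.45 with exoCDN2 and by 2.76 ± 0.44 with 20 µg of CDN2, at 7.85 and 13.1 CPM with the latter, and Itgb2 by 2.62 ± 0.34 and 2.05 ± 0.33. Itgal was at 28.6 and 19.6 CPM with 2 doses of exoCDN2 and at 5.45 and 3.75 with 1 dose, a rise of 2.39 ± 0.42 (edgeR's adjusted p = 0.00498), and Itgb2 rose by 1.87 ± 0.33. T cell genes moved in the same comparison, as given above. From 1 dose to 2 Trim25 was called lower with exoCDN2 (-1.03 ± 0.14) and about equally with PBS (-1.07 ± 0.15), where Itgal differed by -1.83 ± 0.43 and Itgb2 by -1.0 ± 0.32.

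Irf9, the DNA-binding subunit of ISGF3, the factor that carries type I interferon signals to promoters, rose by 1.23 ± 0.11 with 20 µg of CDN2 after 1 dose, 1.17 ± 0.11 with 100 µg and 1.36 ± 0.11 with exoCDN2. After 2 doses Irf9 was called higher with 20 µg of CDN2 (2.49 ± 0.12) and with exoCDN2 (2.26 ± 0.12), and so was Stat2 (3.02 ± 0.21 and 3.45 ± 0.21).

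Ifnb1 mRNA was lower after 2 doses than after 1 with 20 µg of CDN2 and with exoCDN2. Of 20 interferon genes listed, 8 passed the filter on low counts, and all 8 lay above PBS with each agonist after 1 dose. Genes with few counts elsewhere can pass that filter through these tumors alone, so the 8 are a description with no test. Ifnb1, the first type I interferon made downstream of STING, had 6 and 6 counts in PBS tumors, 12 and 3 with unloaded EVs, 560 and 1963 with 20 µg of CDN2, 1649 and 1472 with 100 µg, and 1206 and 866 with exoCDN2. After 2 doses it had 0 and 0 counts with PBS, 185 and 40 with 20 µg of CDN2, 7 and 3 with exoCDN2, and 0 and 2 with CDN2 of unstated amount. From 1 dose to 2, 6 of 8 interferons were called lower with exoCDN2 and 4 of 8 with 20 µg of CDN2, beside 2.34% and 6.36% of all genes. Those counts are no test of enrichment, because high counts in the 1-dose agonist tumors could admit the 8 and so favor a drop. At 2 doses the counts of Ifnb1 were lower with exoCDN2 than with 20 µg of CDN2, as the level of Isg15 was. Isg15, at 239 and 191 CPM, remained far above PBS tumors in the tumors where Ifnb1 was at 7 and 3 counts.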

How the data were processed

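RNA of 18 whole B16F10 tumors (9 groups of 2) was sequenced by the authors as paired reads of 150 bases. The authors deposited expected counts per gene, estimated with RSEM on mm10 (GRCm38) with the Ensembl R88 annotation, and whether counting used strand is not given in the sources used here. Totals were 21608895 to 65983630 per tumor, and 8.75% to 12.7% of values were not whole.

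Counts were rounded and fitted with edgeR 4.0.16 (limma 3.58.1, R 4.3.3) by the quasi-likelihood test with TMM factors and filterByExpr (minimum count 10, total 15). The 16 tumors of stated amount were fitted together (16927 genes, 8 residual degrees of freedom), and all 18 (17110 genes) only for CDN2 of unstated amount. A gene was called at a Benjamini-Hochberg adjusted p under 0.05 over all genes and a ratio over 2. Levels are CPM, and per kilobase of the principal GENCODE M21 transcript where genes are compared. Symbols were found for 99.56% of identifiers. The scripts were tested on simulated data.

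The members, gene lists and tests were chosen with earlier results of these data known. Values of agonists and unloaded EVs against PBS, their differences between numbers of doses, and PBS tumors of the 2 series carry no test for the 5 genes. Neither do the comparisons of other agonist groups with CDN2 of unstated amount. The comparisons tested share tumors with those that chose the genes. Named genes are the 5 members, the 5 genes most correlated with each, and up to 3 called genes per list, direction and comparison. Alternatives were DESeq2 1.42.0, RLE factors, no filter, no ratio limit, other sample sets, pooled PBS tumors, a replicate block, another pseudocount and leaving out each tumor, where the lone tumor left in a group is assumed to vary like the others. A listed gene and the results that need it are not reported here.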

Additional observations from a re-analysis of the deposited data

Results flagged for a closer look

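For 2 genes the gap between exoCDN2 and 20 µg of CDN2 differed between 1 dose and 2 by a test of the difference itself in edgeR. It changed by -1.84 on the log2 scale for Isg15 (adjusted p = 0.0146) and by -1.24 for Usp18 (adjusted p = 0.0273). These 2 calls depended on single tumors and were lost in a fit of the groups compared alone, as given above. Groups of 2 tumors are too small for a check of single outlying tumors.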

How the results depend on the processing

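Against all 4 PBS tumors pooled, the median log2 fold of the 5 genes moved from 1.59 to 2.10 for 20 µg of CDN2 at 1 dose, 1.81 to 2.32 for exoCDN2, 1.38 to 1.89 for 100 µg, and at 2 doses from 4.10 to 2.75 for 20 µg, 4.28 to 2.90 for exoCDN2 and 2.42 to 0.64 for the unstated amount; Uba7 with 100 µg turned to 0.30, and with unloaded EVs Isg15 turned to 0.31 and Usp18 to 0.19. With DESeq2, 2 genes were called for exoCDN2 against 20 µg of CDN2 at 2 doses and 2 for 100 against 20 µg. Without the filter 2 were called for 100 against 20 µg and Uba7 was called in the change of the gap. Herc6 in CDN2 at 2 doses against 1 then turned to -0.0079. RLE factors gave 2 calls for exoCDN2 against 20 µg of CDN2 at 2 doses; no ratio limit gave 2 there and 3 for CDN2 at 2 doses against 1. Fitting only the groups compared gave 0 for exoCDN2 against 20 µg of CDN2 at 2 doses, 0 for CDN2 at 2 doses against 1, 0 for the change of the gap, and 2 for 100 against 20 µg. The cause was not tested.

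Leaving out each tumor gave medians of 1.44 to 1.74 (20 µg, 1 dose) and 3.84 to 4.40 (20 µg, 2 doses). The medians were 3.95 to 4.55 (exoCDN2, 2 doses) and 1.77 to 2.82 (unstated amount). Usp18 in exoCDN2 against 20 µg of CDN2 at 2 doses lay between -1.17 and -0.72. Signs turned for Isg15 in exoCDN2 against 20 µg of CDN2 at 1 dose (-0.39 to 0.11) and in 100 against 20 µg (-0.31 to 0.21), for Uba7 in exoCDN2 against 20 µg of CDN2 at 2 doses (-0.14 to 0.63), for Herc6 in CDN2 at 2 doses against 1 (-0.50 to 0.39), and for Ube2l6 (-0.073 to 0.36) and Herc6 (-0.095 to 0.80) in the change of the gap.

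Tumors with the same replicate number did not deviate together (mean correlation 0.0076 over 36 pairs of groups, -0.30 to 0.38). With the replicate block, calls for 100 against 20 µg went from 1 to 0 (Uba7, edgeR's adjusted p = 0.0578), Ube2l6 in exoCDN2 at 2 doses against 1 became a call (log2 1.0, adjusted p = 0.0195), and calls over all genes for exoCDN2 against 20 µg of CDN2 at 1 dose went from 103 to 0. Of all counts of genes called under an alternative, 102 moved by over 1.5 times and 112 did not; for example DESeq2 called 386 and no filter 707 in place of 103 for exoCDN2 against 20 µg of CDN2 at 1 dose, 403 and 800 in place of 77 for 100 against 20 µg, 389 and 766 in place of 186 for PBS at 2 doses against 1, and 36 and 227 in place of 0 for EVs, and fitting only the groups compared gave 30 in place of 3279 for exoCDN2 against 20 µg of CDN2 at 2 doses. With 2 tumors a group, intervals are wide and a missed threshold does not show that levels were alike.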
